A study of Mus musculus with 4 samples.

Results

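The 9 genes described here encode enzymes, and in Alox5ap a helper protein, that turn arachidonic acid into prostaglandins, leukotrienes and related lipids. All 9 are called enzyme genes below. They were chosen by symbol, with no use of their values, from the 32285 genes counted. In the order of their roles they are the cyclooxygenases Ptgs1 and Ptgs2, the prostaglandin E synthase Ptges, the prostaglandin D synthases Ptgds and Hpgds, the lipoxygenases Alox15 and Alox5, the 5-lipoxygenase activating protein gene Alox5ap, and the leukotriene C4 synthase gene Ltc4s.

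Their RNA was measured in single cells from ascites, the fluid that collects in the abdomen when ovarian cancer spreads there. Female FVB mice received Br-Luc cells (p53-/-, brca1-/-, myc, Akt-myr), a mouse ovarian tumor line, by intraperitoneal injection, and ascites was taken 6 weeks after that injection. The mice were dosed by the same route, in jetPEI, with siRNA carrying locked nucleic acids, either a control duplex (siCont) or a duplex against Fxr1 (siFXR1-LNA), an RNA-binding protein gene. Each group has 2 libraries, and each library pools the ascites of several mice, so that p-values below measure the spread between 2 pooled samples per group. Uptake of the duplex by each cell type was not measured in these data, and red cells were lysed before capture.

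Arachidonic acid, released from membranes by phospholipases, is oxidized by cyclooxygenases to prostaglandin H2 or by lipoxygenases to hydroperoxides. Terminal synthases then make prostaglandin E2, prostaglandin D2 or leukotriene C4, and receptors on other cells read these lipids. Macrophages, neutrophils and mast cells are their main sources, and in the peritoneum prostaglandins and leukotrienes shape fluid leakage, cell recruitment and the return from inflammation to rest. Ptgs2 and Ptges are known as genes that inflammatory signals induce, whereas Ptgs1 is mostly constant, and resident peritoneal macrophages are known for Alox15.

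On GRCm38, the genome build mm10 of the counts, the genes lie at chr2:36230426-36252272 (plus strand) for Ptgs1, chr1:150100031-150108227 (plus strand) for Ptgs2, chr2:30889471-30929863 (minus strand) for Ptges, chr2:25466709-25470046 (minus strand) for Ptgds and chr6:65117293-65144908 (minus strand) for Hpgds. Alox15 spans chr11:70344152-70352031 (minus strand), Alox5 chr6:116410077-116461178 (minus strand), Alox5ap chr5:149264767-149288153 (plus strand) and Ltc4s chr11:50236461-50238616 (minus strand). Exons of Ptgs1, Alox5ap and Ltc4s share bases with an annotated gene on the opposite strand, Gm43621, Gm19719 and Gm26542 in that order, and whether the authors' counting used strand or counted introns is not given in the sources used here.

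The matrices held 17309 to 54665 barcodes and 78179267 to 113606837 UMIs (unique molecular identifiers, 1 per captured RNA molecule) per library. Filtering by the study's limits (100 to 4800 genes, mitochondrial UMIs no higher than 15%) left 16874 to 54344 cells with a median of 1349 to 2653 UMIs. Levels below are counts per 1000000 UMIs of the cells named (CPM). Hemoglobin genes took 29.6% and 41.1% of UMIs in siCont replicates 1 and 2 and 10.0% and 9.12% in siFXR1-LNA replicates 1 and 2, and the libraries shared 598 to 2882 barcodes in pairs. Clusters were named from marker genes, and every cell type name below means cells like that type by those markers. An unnamed cluster (cluster 0) held most of the 41215 and 5473 unnamed cells of siFXR1-LNA replicates 1 and 2, against 66 and 47 unnamed cells in the siCont libraries. Its largest subcluster (0.0) is led by Ccn2, Tfrc and Dcn, with 3 of 5 epithelial and 3 of 6 mesothelial markers raised. Its second (0.1) had all 5 erythrocyte markers raised and a median of 49.9% hemoglobin UMIs. The cluster as a whole met the naming limits for neither type.

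Fxr1, the gene the siRNA targets, was not lower in the libraries labelled siFXR1-LNA. Summed over all cells it stood at 104 CPM in siFXR1-LNA replicate 1 and 71.8 CPM in replicate 2, and at 55.8 CPM in siCont replicate 1 and 33.9 CPM in replicate 2. Once hemoglobin UMIs were taken out of the totals, the siFXR1-LNA libraries had 116 and 80.0 CPM and the siCont libraries 80.4 and 59.4 CPM. In macrophages it had 65.6 and 60.9 CPM under the siCont label (replicates 1 and 2) against 73.2 and 68.7 CPM under the siFXR1-LNA label (log2 fold change 0.35 ± 0.11 (SE), adjusted p = 0.0872). Directions are therefore given between libraries by their labels.

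Each gene had its own pattern over the cell types, shown in the plot of levels by cell type and library. Among the cyclooxygenases, Ptgs1 was spread over 4 types whose ranges overlapped, with a mean of 95.5 ± 59.3 CPM (SD over 4 libraries, both groups together) in macrophages, 73.5 ± 32.9 CPM in mesothelial cells, 61.7 ± 31.0 CPM in mast cells and 47.2 ± 23.3 CPM in granulocytes. Every granulocyte value lay above every T cell, B cell and dendritic cell (DC) value. Ptgs2 was scarce everywhere, with 925 UMIs in all kept cells. Granulocytes had the highest mean, 10.6 ± 4.81 CPM, and mesothelial cells came next with 3.39 ± 2.38 CPM, a range that overlapped the granulocytes.

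Of the terminal synthases, Hpgds marked the mast cells with 111 and 201 CPM under the siCont label (replicates 1 and 2) against 153 and 193 CPM under the siFXR1-LNA label. All 4 values lay above the macrophages, which were next with 10.3 to 44.99 CPM, and every other tested type stayed below 10 CPM. The cluster named mast cells had all 7 mast cell markers raised, but its leading genes hold, beside the mast cell genes Mcpt1 and Il1rl1, also Elane, Mpo, Ctsg and Prtn3, which granulocyte precursors use. With each cell named from its own marker UMIs instead of its cluster, the mean of Hpgds in mast cells was 78.0 CPM, against 164 ± 41.6 CPM by cluster. Ptges was highest in macrophages, where it was abundant only in the libraries labelled siFXR1-LNA. Ptgds, in contrast, had no clear home among the named types, with means between 12.1 ± 9.80 CPM in mature DCs and 45.5 ± 36.5 CPM in granulocytes and overlapping ranges throughout.

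The lipoxygenases divided between macrophages and granule-bearing cells. Alox15, whose product feeds lipids of the resolution phase, was a macrophage gene, with a mean of 146 ± 118 CPM there against 17.1 ± 21.2 CPM in mast cells, the next type, whose highest library overlapped the lowest of the macrophages. Alox5, which starts leukotriene synthesis, was highest in mast cells with 222 and 316 CPM under the siCont label (replicates 1 and 2) against 191 and 237 CPM under the siFXR1-LNA label. Granulocytes followed with 168 and 212 CPM under the siCont label (replicates 1 and 2) against 77.8 and 115 CPM under the siFXR1-LNA label, and the ranges of the 2 types overlapped. The level in mast cells rests on the naming. With each cell named from its own marker UMIs, the mean of Alox5 in mast cells was 99.4 CPM. That naming gave 2999 and 595 mast cells in siCont replicates 1 and 2 and 82 and 52 in siFXR1-LNA replicates 1 and 2. The granulocyte clusters had 143 ± 58.9 CPM, but granulocytes were not measured under the marker naming here, so the order of these types is not settled. Macrophages had a mean of 48.3 ± 28.7 CPM, with every value below every granulocyte value, and DCs with 8.77 ± 1.94 CPM lay below every macrophage value.

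Alox5ap, which presents arachidonic acid to 5-lipoxygenase, was abundant in granulocytes, DCs and macrophages, with means of 1303 ± 466, 1024 ± 162 and 1006 ± 148 CPM and overlapping ranges. DCs thus held Alox5ap without a matching level of Alox5, which stood at 10.4 and 9.29 CPM in their siCont libraries, near the 14.5 and 4.37 CPM of B cells. Subcluster 2.3 held 773 of 1169 and 432 of 607 DCs in siCont replicates 1 and 2. It held 181 of 251 and 234 of 296 in siFXR1-LNA replicates 1 and 2. This subcluster came from a macrophage cluster, is led by Cd209a and Mgl2 and had 4 of 8 DC markers raised. The part of this naming in the DC levels was not tested. Ltc4s, which joins glutathione to leukotriene A4, was a macrophage gene, with 999.8 and 781 CPM under the siCont label (replicates 1 and 2) against 122 and 180.5 CPM under the siFXR1-LNA label. In platelets, which only siCont replicate 2 held in number (200 cells), Ptgs1 had 128 CPM from 45 UMIs (exact Poisson 95% interval 93.4 to 171 CPM, counting error only) and Alox5ap 364 CPM.

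**Figure D1:**
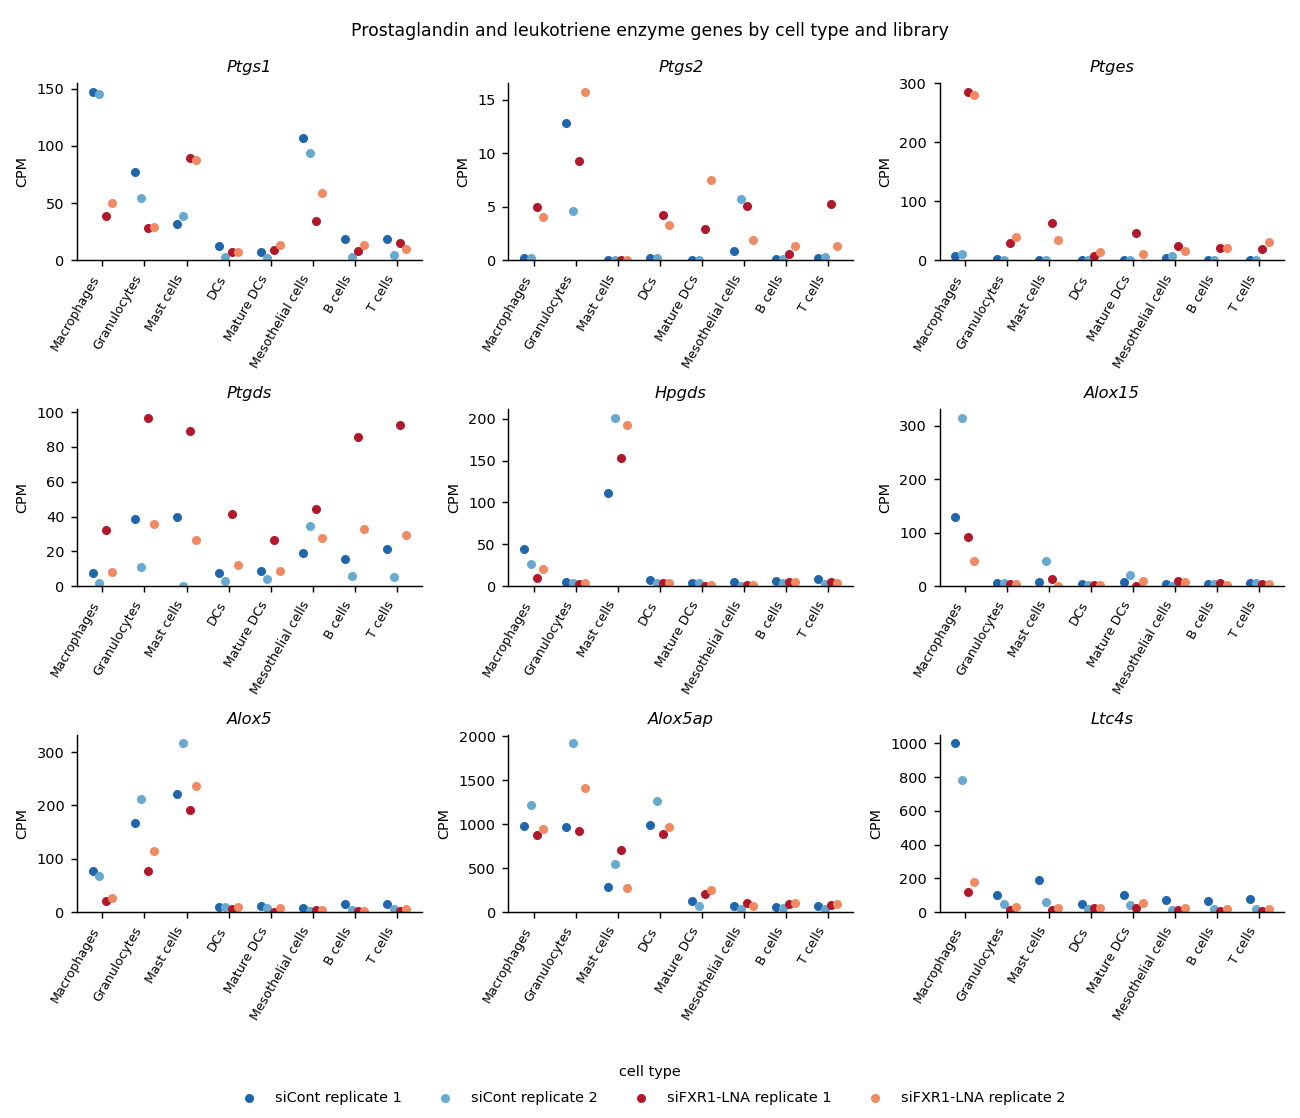
Level in CPM (linear y axis, each panel with its own scale) of the 9 enzyme genes in 8 cell types (x axis), with 1 point for each of the 4 libraries. Hpgds and Alox5 are highest in mast cells, Ltc4s and Alox15 in macrophages, and Ptges stands at 286 and 280.3 CPM in the macrophages of the siFXR1-LNA libraries only.

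RNA free in the droplet fluid gives UMIs in cells that do not make a gene, so the level in lymphocytes, erythrocytes and cluster 0 of the same library is given as a measure of the background. These are cells and not empty droplets, and no background correction was run. For Ptges, B cells had 0.562 and 0.398 CPM under the siCont label (replicates 1 and 2) against 21.0 and 20.8 CPM under the siFXR1-LNA label, and T cells had 19.0 and 31.7 CPM in the latter libraries. Ptges in these cells thus differed between the groups in the same direction as in macrophages. Ltc4s in B cells was high in siCont replicate 1 alone, at 63.4 CPM, against 18.3 CPM in siCont replicate 2 and 9.40 and 18.2 CPM in the siFXR1-LNA libraries. Ptgds in B cells, at 15.7 and 5.70 CPM under the siCont label (replicates 1 and 2) against 85.7 and 33.1 CPM under the siFXR1-LNA label, was as high as in most other types, and cluster 0 of siFXR1-LNA replicate 1, with 136 CPM, was above all named types with more than 10 cells.

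**Figure D2:**
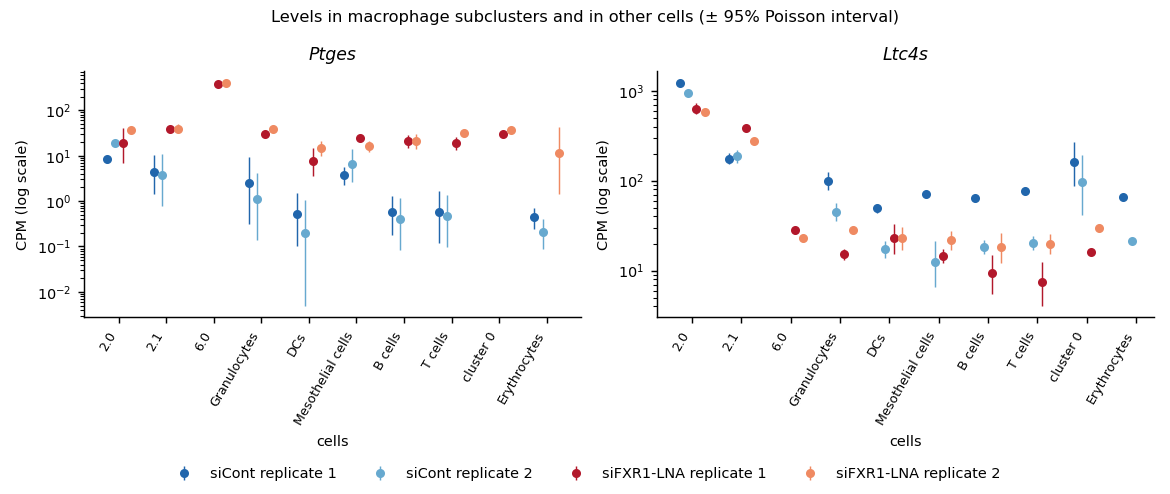
Levels in CPM (log-scaled y axis) of Ptges and Ltc4s, with 1 point per library and its 95% Poisson interval. The x axis holds macrophage subclusters 2.0, 2.1 and 6.0, described further on, and other cells, among them those that serve as background. Ptges in B cells of the siFXR1-LNA libraries lies at 21.0 and 20.8 CPM. These values are far below subcluster 6.0 of the same libraries and far above the B cells of the siCont libraries.

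In macrophages, Ptges and Ptgs2 rose and Ltc4s, Ptgs1 and Alox5 fell in the libraries labelled siFXR1-LNA, so that 5 of the 9 genes changed, against 18.9% of the 14269 genes tested in these cells. Without 1 cluster (cluster 6), nearly all of it from the siFXR1-LNA libraries, all 5 changes were smaller and none passed, as described further on. Ptges, the last step to prostaglandin E2, had 6.51 and 10.5 CPM under the siCont label (replicates 1 and 2) against 286 and 280.3 CPM under the siFXR1-LNA label (log2 fold change 5.25 ± 0.30 (SE), adjusted p = 0.00403). The lowest siFXR1-LNA value was thus many times the highest siCont value. Ptgs2, the inducible cyclooxygenase, went from 5 and 4 UMIs in siCont replicates 1 and 2 to 113 and 133 UMIs in siFXR1-LNA replicates 1 and 2, or 0.217 and 0.233 CPM against 4.99 and 4.08 CPM (log2 fold change 4.49 ± 0.36 (SE), adjusted p = 0.00562). These levels were similar to the 4.25 and 3.32 CPM of DCs and the 5.28 and 1.35 CPM of T cells in the siFXR1-LNA libraries.

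Ltc4s and Alox5 of the leukotriene steps and the cyclooxygenase gene Ptgs1 ran the other way. Ltc4s, given above, fell by 2.37 on the log2 scale (log2 fold change -2.37 ± 0.25 (SE), adjusted p = 0.00855). Ptgs1 had 148 and 146 CPM under the siCont label (replicates 1 and 2) against 38.3 and 50.5 CPM under the siFXR1-LNA label (log2 fold change -1.54 ± 0.16 (SE), adjusted p = 0.00839). Both genes were lower in both siFXR1-LNA libraries than in either siCont library. Alox5 had 77.4 and 68.5 CPM under the siCont label (replicates 1 and 2) against 21.2 and 26.3 CPM under the siFXR1-LNA label (log2 fold change -1.43 ± 0.14 (SE), adjusted p = 0.00783).

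The other 4 genes did not pass the test in macrophages. Alox15 had 129 and 316 CPM under the siCont label (replicates 1 and 2) against 91.9 and 47.7 CPM under the siFXR1-LNA label (log2 fold change -1.49 ± 0.54 (SE), adjusted p = 0.118), so that the gap within the siCont libraries was wider than that between the lower of them and siFXR1-LNA replicate 1. Alox5ap had 979 and 1218 CPM under the siCont label (replicates 1 and 2) against 878 and 946 CPM under the siFXR1-LNA label, a log2 fold change of -0.09 ± 0.20 (SE, adjusted p = 0.789). Hpgds had 44.99 and 25.9 CPM under the siCont label (replicates 1 and 2) against 10.3 and 20.3 CPM under the siFXR1-LNA label (adjusted p = 0.133). Ptgds had 7.29 and 1.75 CPM under the siCont label (replicates 1 and 2) against 32.6 and 8.19 CPM under the siFXR1-LNA label (adjusted p = 0.129), below the B cells of each library. The part of free RNA in these values was not tested. The median log2 fold change of the 9 genes was -1.01, against 0.01 over all genes tested.

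For 3 of the genes that changed in macrophages, RefSeq gives a promoter window on GRCm38.p6 whose 250 bases before the gene start hold no exon. They are shown because the 3 genes are neighbours in the pathway and moved in opposite directions, Ptges upward and Ptgs1 and Alox5 downward. The windows are chr2:30903298-30903547 on the minus strand for Ptges, chr2:36230176-36230425 on the plus strand for Ptgs1 and chr6:116461179-116461428 on the minus strand for Alox5. The Ptges window lies inside the gene's span given above, because other transcripts start farther upstream. Sequences run 5′ to 3′ on the gene's strand, and capitals mark matches to the motifs named below.
Ptges: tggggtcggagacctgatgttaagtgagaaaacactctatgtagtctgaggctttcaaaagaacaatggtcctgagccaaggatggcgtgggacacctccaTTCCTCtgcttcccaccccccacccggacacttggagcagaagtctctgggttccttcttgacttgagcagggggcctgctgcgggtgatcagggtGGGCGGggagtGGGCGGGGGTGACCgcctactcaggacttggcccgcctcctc
Ptgs1: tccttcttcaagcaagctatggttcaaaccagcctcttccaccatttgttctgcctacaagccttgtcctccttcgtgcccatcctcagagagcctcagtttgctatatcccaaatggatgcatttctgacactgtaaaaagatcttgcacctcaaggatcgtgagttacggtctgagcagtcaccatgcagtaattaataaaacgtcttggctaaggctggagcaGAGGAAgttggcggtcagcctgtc
Alox5: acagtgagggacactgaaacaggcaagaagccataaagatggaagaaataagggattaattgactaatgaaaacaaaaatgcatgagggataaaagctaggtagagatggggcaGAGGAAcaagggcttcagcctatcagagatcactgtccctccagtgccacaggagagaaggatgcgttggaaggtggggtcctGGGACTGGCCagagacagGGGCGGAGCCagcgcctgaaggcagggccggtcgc

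On either strand, 8 motifs were searched. The GC box (GGGCGG) was in 32.9% of 27025 RefSeq promoter windows, the core of the myeloid factor PU.1 (GAGGAA) in 23.1%, the NF-kB pattern (GGGNNNNNCC) in 45.4% and the C/EBP pattern (TTGCNNAA) in 9.55%. The EGR pattern (GCGNGGGCG) was in 4.65%, the AP-1 pattern (TGANTCA) in 6.87%, the hypoxia core (ACGTG) in 16.6% and the TATA box (TATAAA) in 12.97%. All 3 windows hold a PU.1 core, 149 bases before the start in Ptges, 136 in Alox5 and 24 in Ptgs1. Ptgs2 and Ltc4s, which changed in macrophages too, have shorter windows without exons, of 67 and 166 bases. Neither of those holds a PU.1 core. Ptges holds 2 GC boxes, 53 and 42 bases before its start, the nearer of which overlaps a match to the NF-kB pattern. Alox5 holds 1 GC box and 2 matches to the NF-kB pattern, 1 of which overlaps the GC box. No other of the 8 motifs matched in the 3 windows shown, which says only that these letters are absent there.

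The macrophages were not made up alike in the groups, as the plot of their subclusters shows. Subcluster 2.0, led by Apoe, Fcna and Cbr2 and with Ltc4s too among its 10 leading genes, had 5 of 7 resident peritoneal markers and 4 of 5 Lyve1 macrophage markers raised against the other macrophage subclusters. It held 62.2% and 49.6% of macrophages in siCont replicates 1 and 2 but 1.33% and 28.0% in siFXR1-LNA replicates 1 and 2. Subcluster 2.1, led by Retnla, Apoe, Fn1, Prg4 and Alox15, likewise had 5 of 7 resident peritoneal markers raised and held 8.66% and 9.73% against 34.1% and 11.1%. Subcluster 2.2 had all 4 patrolling monocyte markers raised, and Ltc4s was among its 10 leading genes too. It held 24.0% and 33.7% in the siCont libraries and at most 0.0274% in the siFXR1-LNA libraries. The part of this difference in the fall of Ltc4s in macrophages was not tested. Cluster 6, whose main part 6.0 is led by Saa3, Arg1, Hmox1 and Nos2, held 0 and 1 cell in the siCont libraries and 2519 and 2192 cells in the siFXR1-LNA libraries, or 64.3% and 60.1% of their macrophages. Summed levels of the 7 macrophage markers in macrophages were 25522 and 18511 CPM in the siCont libraries and 7703 and 14312 CPM in the siFXR1-LNA libraries. Those of the 7 granulocyte markers were 123 and 432 CPM against 1310.3 and 1594 CPM, with no marker at 0, and their part in the changes was not tested.

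**Figure D3:**
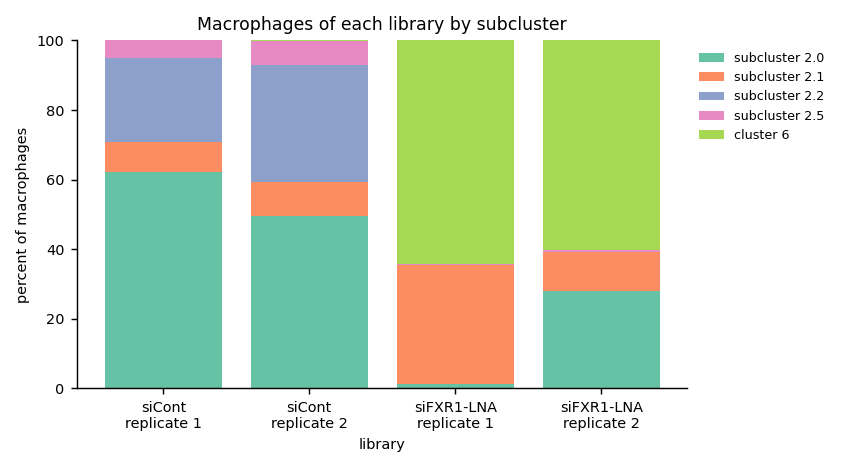
Share of each library's macrophages in 5 subclusters (y axis, percent, stacked to 100) for the 4 libraries (x axis). Cluster 6 takes 64.3% and 60.1% of macrophages in the siFXR1-LNA libraries and next to nothing in the siCont libraries.

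Cluster 6 carried the macrophage Ptges. In 6.0, Ptges stood at 389.9 and 407 CPM in siFXR1-LNA replicates 1 and 2 and was among the 10 leading genes of the cluster, so its level there is a description. With each cell thinned to 1000 UMIs, 25.7% and 27.6% of 6.0 cells had a Ptges UMI (exact binomial 95% intervals 23.8 to 27.7% and 25.6 to 29.7%, counting error only). In B cells of the same libraries, thinned alike, 1.60% and 1.88% had one. Before thinning these shares were 69.0% and 75.0% at median depths of 7030 and 10742 UMIs in 6.0 and 4.38% and 5.01% at 1973 and 2241 UMIs in B cells.

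The same cluster was low in most other enzyme genes. In siFXR1-LNA replicates 1 and 2, 6.0 had 28.1 and 22.8 CPM of Ltc4s, 10.6 and 9.58 CPM of Ptgs1, 7.75 and 7.89 CPM of Alox5 and 5.82 and 1.89 CPM of Alox15. B cells of the same libraries had 9.40 and 18.2 CPM of Ltc4s and 7.74 and 13.6 CPM of Ptgs1. Alox5ap, at 894 and 951 CPM, was as high in 6.0 as in the other macrophages. The cells of 6.0 thus held many UMIs of Alox5ap and Ptges and few of both lipoxygenases and of the leukotriene C4 synthase.

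Without cluster 6, none of the 9 genes passed the test in macrophages (4 at an unadjusted p under 0.05 in edgeR, and 0 of all genes past the threshold), an alternative chosen after seeing the data. All 5 genes that had changed kept their direction. The log2 fold change became 2.95 for Ptgs2 (adjusted p = 0.134), 2.13 for Ptges (adjusted p = 0.0832) and -0.98 for Ltc4s (adjusted p = 0.154). It became -0.24 for Alox5 (adjusted p = 0.419) and -0.23 for Ptgs1 (adjusted p = 0.447). The macrophages left differed between siFXR1-LNA replicates 1 and 2, with 52 and 1022 cells in 2.0 and 1334 and 404 cells in 2.1. Subcluster 2.2, nearly all from the siCont libraries, stayed in. Why the calls were lost was not tested. At a clustering resolution of 0.3, where cluster 6 gained no macrophage name, 0 of the 9 genes passed as well, with 4 at an unadjusted p under 0.05.

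Within subcluster 2.0, no gene of the 9 passed the test (4 of the 8 tested at an unadjusted p under 0.05 in edgeR, 0 past the threshold with DESeq2), in a comparison that called 0.0327% of all genes. Ltc4s had 1226 and 952 CPM under the siCont label (replicates 1 and 2) against 630.1 and 584 CPM under the siFXR1-LNA label (log2 fold change -0.91 ± 0.23 (SE), adjusted p = 0.466). Both siFXR1-LNA values were below both siCont values. Ptgs1 had 179 and 199 CPM under the siCont label (replicates 1 and 2) against 155 and 144 CPM under the siFXR1-LNA label (adjusted p = 0.853), and Alox15 had 185 and 598 CPM under the siCont label (replicates 1 and 2) against 74.5 and 143 CPM under the siFXR1-LNA label (adjusted p = 0.659). siFXR1-LNA replicate 1 had only 52 cells in this subcluster.

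Within subcluster 2.1, Ptges and Alox15 rose in the libraries labelled siFXR1-LNA, 2 of the 8 genes tested, against 2.47% of all genes. Ptges had 4.43 and 3.78 CPM under the siCont label (replicates 1 and 2) against 39.2 and 39.6 CPM under the siFXR1-LNA label (log2 fold change 3.13 ± 0.37 (SE), adjusted p = 0.00891), with B cells of the latter libraries at 21.0 and 20.8 CPM. Alox15, which is among the 10 leading genes of this subcluster but was kept out of the clustering, had 16.8 and 34.1 CPM under the siCont label (replicates 1 and 2) against 364 and 163 CPM under the siFXR1-LNA label (log2 fold change 3.33 ± 0.51 (SE), adjusted p = 0.0174). Every siFXR1-LNA library was above every siCont library for both genes. For Ptges, cluster 0 of the siFXR1-LNA libraries, given below with the granulocytes, came close to the values in 2.1. The part of free RNA in the Ptges call was not tested. B cells had at most 6.08 CPM of Alox15 in any library, and the thinned share of 2.1 cells with an Alox15 UMI was 1.51% and 2.79% in the siCont and 14.6% and 7.83% in the siFXR1-LNA libraries. Without siCont replicate 1 the adjusted p was 0.147 for Alox15 and 0.0803 for Ptges. Ptgs1, at 106 and 111 CPM under the siCont label (replicates 1 and 2) against 113 and 105 CPM under the siFXR1-LNA label, did not pass (log2 fold change -0.09 ± 0.23 (SE), adjusted p = 0.893).

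Alox15 had fold changes of opposite sign in subclusters 2.0 and 2.1. The difference of the 2 changes, a test chosen after seeing the data, was 4.64 ± 0.33 (SE), adjusted p = 4.03e-24. It was 1.62 ± 0.25 (SE), adjusted p = 1e-06 for Ltc4s and 1.77 ± 0.52 (SE), adjusted p = 0.0388 for Ptges, and this comparison called 2.46% of all genes. In siFXR1-LNA replicate 1 Alox15 was found more in 2.1 than in 2.0 (364 against 74.5 CPM, the latter from 52 cells). In siFXR1-LNA replicate 2 the values were close (163 against 143 CPM). In the siCont libraries it was found more in 2.0 than in 2.1 (185 and 598 against 16.8 and 34.1 CPM). For Alox15 the siFXR1-LNA libraries thus differed more than the SE of 0.33 states, since that SE draws in part on all genes. In the cycling subcluster 2.5, none of the 6 genes tested passed (1 at an unadjusted p under 0.05 in edgeR, 0 with DESeq2), against 0.196% of all genes.

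**Figure D4:**
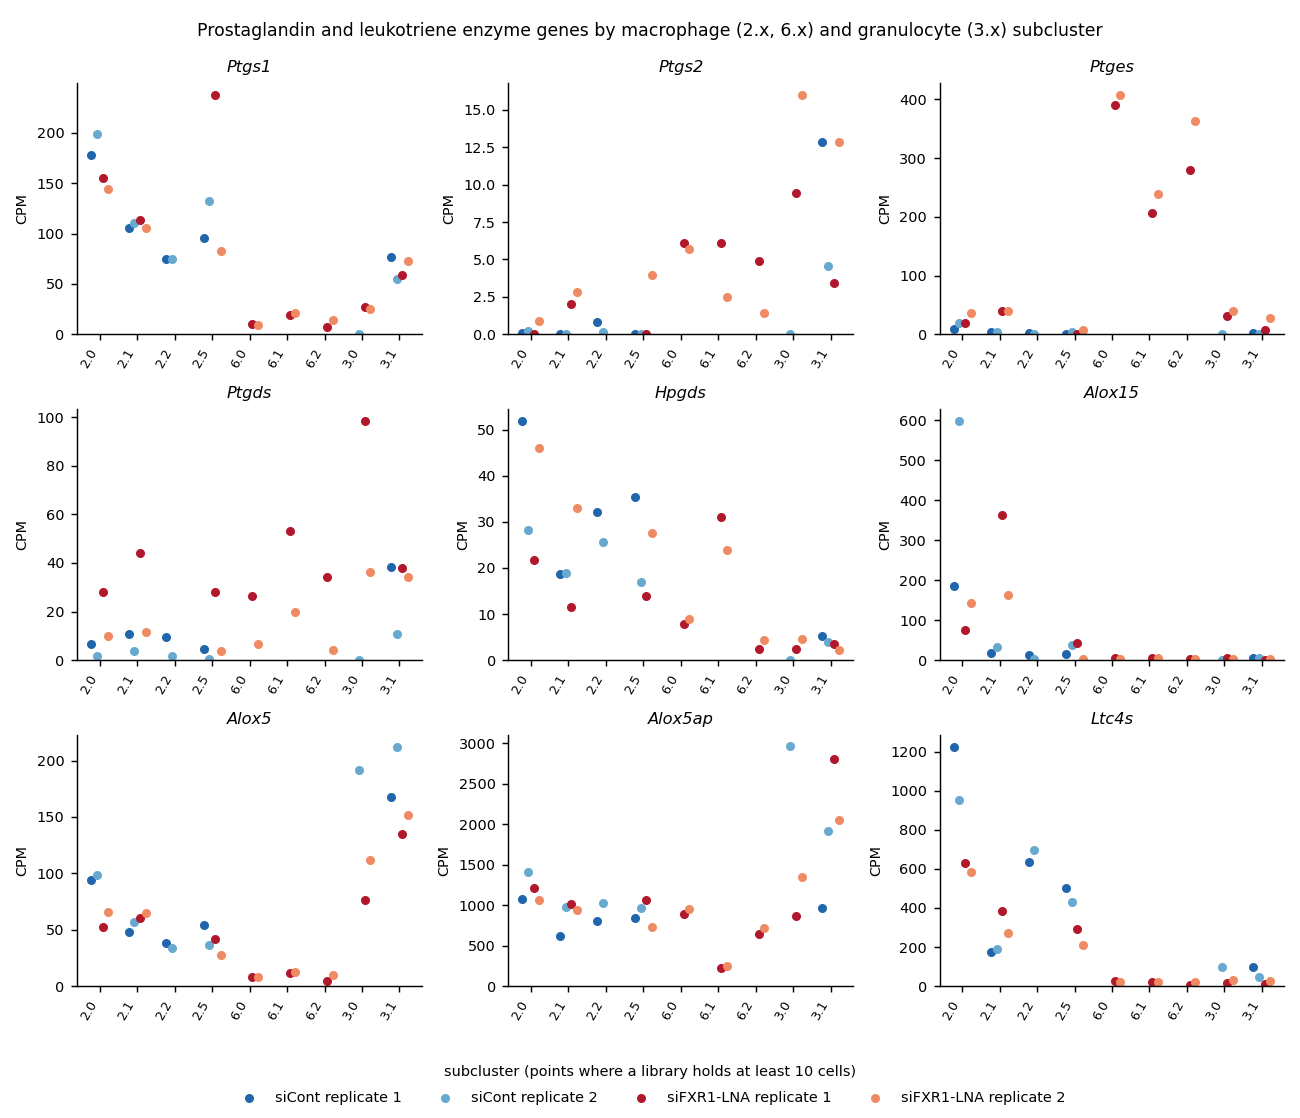
Level in CPM (linear y axis, each panel with its own scale) of the enzyme genes in macrophage subclusters and in granulocyte subclusters 3.0 and 3.1 (x axis). Each point is 1 library, shown where it holds at least 10 cells. Ptges stands at 389.9 and 407 CPM in 6.0, where Ltc4s, Ptgs1 and Alox5 are low, and Alox15 is highest in 2.0 in the siCont libraries and in 2.1 in siFXR1-LNA replicate 1.

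In granulocytes, Ptges rose and Ltc4s fell in the libraries labelled siFXR1-LNA, 2 of the 9 genes against 3.29% of all genes. Ptges had 2.56 and 1.14 CPM under the siCont label (replicates 1 and 2) against 30.0 and 39.3 CPM under the siFXR1-LNA label (log2 fold change 4.14 ± 0.60 (SE), adjusted p = 0.00545). In cluster 0 of the siFXR1-LNA libraries it had 30.5 and 36.1 CPM, so that the granulocyte values were close to those of cluster 0. Ltc4s had 99.9 and 45.1 CPM under the siCont label (replicates 1 and 2) against 15.1 and 28.2 CPM under the siFXR1-LNA label (log2 fold change -1.90 ± 0.46 (SE), adjusted p = 0.0495), with 76.3 and 20.3 and 7.39 and 19.9 CPM in T cells of the same libraries, and the call was lost under most alternatives. Alox5, with the values given above, had an adjusted p of 0.157, and Ptgs2, with 12.8 and 4.56 CPM under the siCont label (replicates 1 and 2) against 9.28 and 15.7 CPM under the siFXR1-LNA label, one of 0.721. Alox5ap had 968 and 1918 CPM under the siCont label (replicates 1 and 2) against 917 and 1410.3 CPM under the siFXR1-LNA label (adjusted p = 0.585), and its groups overlapped.

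Granulocytes also differed in kind. Subcluster 3.1, led by Ngp, Camp and Ltf, which maturing neutrophils use, held 439 and 890 of the 440 and 901 granulocytes of siCont replicates 1 and 2, whereas 3.0, led by Retnlg and Il1r2, held 5395 and 4476 of the 5467 and 4799 granulocytes of siFXR1-LNA replicates 1 and 2. Within 3.1, an alternative chosen after seeing the data, none of the 6 genes tested passed (1 at an unadjusted p under 0.05 in edgeR), against 0.506% of all genes. There Ptges had 2.57 and 1.15 CPM under the siCont label (replicates 1 and 2) against 6.91 and 27.8 CPM under the siFXR1-LNA label and Alox5 had 168 and 212 CPM under the siCont label (replicates 1 and 2) against 135 and 152 CPM under the siFXR1-LNA label. Alox5ap in 3.1 had 968 and 1911 CPM under the siCont label (replicates 1 and 2) against 2802 and 2050.4 CPM under the siFXR1-LNA label.

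Mesothelial cells, named from genes of the lining of the abdominal cavity, had lower Ptgs1 and higher Ptges in the libraries labelled siFXR1-LNA, 2 of the 8 genes tested against 7.75% of all genes. Ptgs1 had 107 and 94.0 CPM under the siCont label (replicates 1 and 2) against 34.8 and 58.6 CPM under the siFXR1-LNA label (log2 fold change -1.12 ± 0.26 (SE), adjusted p = 0.0310). Ptges had 3.67 and 6.72 CPM under the siCont label (replicates 1 and 2) against 24.6 and 16.4 CPM under the siFXR1-LNA label (log2 fold change 2.27 ± 0.44 (SE), adjusted p = 0.0149), no higher than cluster 0 in the latter libraries. All 4 subclusters of these cells had at least 5 of the 6 mesothelial markers raised, though none among their 10 leading genes. Subcluster 7.3 also had all 5 epithelial markers raised, and 3 of 4 cycling markers were raised in 7.1 and 2 of 4 in 7.3. Whether cells of the tumor line are among them was not tested. The subclusters differed by group as well, with 64.1% and 63.4% of them in 7.1 in the siCont libraries and 76.7% and 65.9% in 7.0 in the siFXR1-LNA libraries. Ptgs1 stood at 90.9 and 93.1 CPM in 7.1 of the siCont libraries and at 24.7 and 27.8 CPM in 7.0 of the siFXR1-LNA libraries. Both calls were lost without siCont replicate 1 (adjusted p = 0.1002 for Ptgs1) and without siFXR1-LNA replicate 1 (adjusted p = 0.119).

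In the remaining types, Ptges was the sole one of the 9 genes to pass. It had 0.510 and 0.193 CPM under the siCont label (replicates 1 and 2) against 7.64 and 14.7 CPM under the siFXR1-LNA label in DCs (log2 fold change 4.83 ± 0.70 (SE), adjusted p = 0.0253), a comparison that called 2.28% of all genes. B cells, given above, had a change of 5.17 on the log2 scale (adjusted p = 0.0307, 0.164% of all genes called), and T cells one of 5.35 (adjusted p = 0.0161, 0.307% of all genes called). In all 3 types the siFXR1-LNA values were no higher than the 30.5 and 36.1 CPM of cluster 0 in the same libraries, and the part of free RNA in these calls was not tested. In B cells the call was lost without either siFXR1-LNA library (adjusted p = 0.0938 without replicate 1 and 0.0521 without replicate 2), in T cells without siFXR1-LNA replicate 2 (adjusted p = 0.0533) and in DCs without siFXR1-LNA replicate 1 (adjusted p = 0.132). Without siFXR1-LNA replicate 2, Ptges had too few UMIs in DCs to be tested, and 0 of the 9 genes passed there (1 at an unadjusted p under 0.05 in edgeR).

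In mature DCs, which carry Ccr7 and Fscn1, neither of the 2 genes tested passed (1 at an unadjusted p under 0.05 in edgeR), against 2.86% of all genes. Alox5ap had 127 and 70.6 CPM under the siCont label (replicates 1 and 2) against 206 and 249 CPM under the siFXR1-LNA label there (log2 fold change 1.09 ± 0.31 (SE), adjusted p = 0.113). In mast cells, none of the 3 genes tested passed (0 at an unadjusted p under 0.05 in edgeR, 0 with DESeq2), against 2.91% of all genes, at 55 to 118 cells per library. The log2 fold change of Hpgds there was -0.38 ± 0.59 (SE, adjusted p = 0.947).

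**Figure D5:**
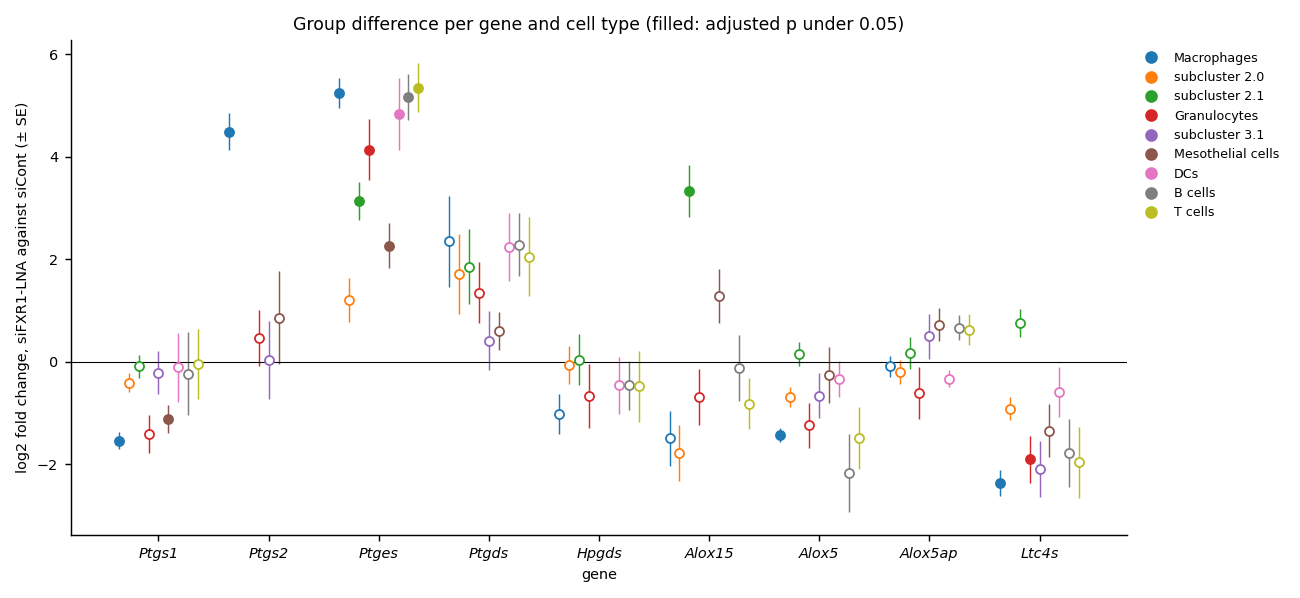
Log2 fold change of each gene (x axis) between the siFXR1-LNA and siCont libraries, with its SE as the bar, in 9 cell types and subclusters; filled points have an adjusted p under 0.05. Ptges is filled wherever a point is shown except in subcluster 2.0, and Ltc4s is filled in macrophages and granulocytes.

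The changes in macrophages were set against those in each other type in a test of the difference itself, with the library as a block. Macrophages here include the Saa3-led cluster described above, nearly all of it from the siFXR1-LNA libraries. The test was not run without that cluster, so the part of macrophage make-up in these differences was not tested. Of the 9 genes, 7 pairs of gene and type differed. For Ptgs2 the log2 change in granulocytes minus that in macrophages was -4.00 ± 0.72 (SE), adjusted p = 0.00037, in a comparison where 4.71% of all genes differed. For Ptges the change in mesothelial cells minus that in macrophages was -3.14 ± 0.44 (SE), adjusted p = 0.0154, where 0.759% of all genes differed. For Ltc4s the difference was 1.86 ± 0.34 (SE), adjusted p = 0.00189 in DCs and 1.42 ± 0.35 (SE), adjusted p = 0.00226 in mature DCs. It was 1.09 ± 0.32 (SE), adjusted p = 0.0474 for Alox5 in DCs and 2.69 ± 0.62 (SE), adjusted p = 0.000883 for Ptgs1 in mature DCs. Ptgs1 was low in mature DCs, with a mean of 7.69 ± 4.90 CPM (SD over 4 libraries), near the 10.8 ± 6.68 CPM of B cells. It was not among the genes tested within mature DCs. Ltc4s was low in DCs of the siCont libraries, with 49.1 and 17.2 CPM, near the 63.4 and 18.3 CPM of B cells. Alox5ap differed in mature DCs (1.14 ± 0.28 (SE), adjusted p = 0.00228), where it stood well above B cells in the siFXR1-LNA libraries. The share of all genes that differed was 7.64% for DCs and 4.72% for mature DCs. No gene of the 9 differed for mast cells (0.266% of all genes), B cells (2.98%) or T cells (1.69%).

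Around the 9 enzymes, 47 other genes of the pathway were listed, and 31 of them were tested in macrophages, where 3 rose and 6 fell in the siFXR1-LNA libraries, against 18.9% of all genes tested there. Without cluster 6, no gene of any kind passed in macrophages. Of the release step, 1 of 3 genes tested changed, the cytosolic phospholipase A2 gene Pla2g4a, with 77.2 and 86.2 CPM under the siCont label (replicates 1 and 2) against 44.1 and 48.1 CPM under the siFXR1-LNA label (log2 fold change -0.64 ± 0.13 (SE), adjusted p = 0.0311). Of 6 other prostanoid synthases 1 fell, Akr1b3 (133 and 124 against 70.5 and 80.3 CPM, adjusted p = 0.0335). Thromboxane synthase, Tbxas1, was the most abundant other pathway gene of macrophages in UMIs, with 540.4 and 423 CPM under the siCont label (replicates 1 and 2) against 285 and 305 CPM under the siFXR1-LNA label (adjusted p = 0.0902).

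Prostaglandin breakdown moved in both directions. The dehydrogenase gene Hpgd, which inactivates prostaglandins, had 21.5 and 14.2 CPM under the siCont label (replicates 1 and 2) against 1.28 and 3.68 CPM under the siFXR1-LNA label (log2 fold change -2.63 ± 0.51 (SE), adjusted p = 0.0287), whereas the reductase gene Ptgr1 had 25.5 and 20.2 against 46.7 and 49.3 CPM (adjusted p = 0.00891). Hpgd was lower, and Ptges higher, in both siFXR1-LNA libraries. Of 8 genes of further leukotriene steps, Mgst2 rose (1.52 and 1.69 against 16.5 and 16.2 CPM, adjusted p = 0.00396) and Cyp4f18 fell (80.4 and 115 against 33.3 and 43.9 CPM, adjusted p = 0.0343). The 1 other lipoxygenase tested did not pass.

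Of 8 receptors tested in macrophages, Fpr2 rose and Ptgir and Cysltr2 fell. Fpr2, a receptor for lipoxin and formyl peptides, had 7.95 and 16.8 CPM under the siCont label (replicates 1 and 2) against 85.8 and 87.1 CPM under the siFXR1-LNA label (log2 fold change 2.99 ± 0.38 (SE), adjusted p = 0.0118). The prostacyclin receptor gene Ptgir had 8.25 and 9.14 against 3.14 and 3.74 CPM (adjusted p = 0.0278), and the leukotriene receptor gene Cysltr2 4.69 and 5.01 against 1.28 and 1.99 CPM (adjusted p = 0.0441). In granulocytes 1 of 28 other genes passed, the leukotriene receptor gene Cysltr1, with 37.1 and 35.4 CPM under the siCont label (replicates 1 and 2) against 6.13 and 6.97 CPM under the siFXR1-LNA label (log2 fold change -2.71 ± 0.39 (SE), adjusted p = 0.00553). Fpr2 also passed in DCs (1.36 and 1.74 against 17.8 and 22.3 CPM), mesothelial cells (0.349 and 0 against 17.6 and 11.7 CPM) and subcluster 2.1, where B cells of the siFXR1-LNA libraries had 8.85 and 11.05 CPM and granulocytes 272 and 378 CPM. Mgst1 was the most abundant other pathway gene of granulocytes, with 419.9 and 228 CPM under the siCont label (replicates 1 and 2) against 422 and 393 CPM under the siFXR1-LNA label, and of mast cells, with 125 to 388 CPM, and cluster 0 held 388 to 538 CPM of it.

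Genes whose level ran most like each enzyme were ranked by Pearson's r of log2(CPM + 1) over 38 points, each 1 cell type in 1 library, which share libraries and depth, so r is a description. Ptges ran with the acute phase gene Saa3 (r = 0.96) and the metallothionein Mt2 (0.91). Alox5ap ran with Trpm2 (0.94), Ifitm2 (0.91) and Cd300a (0.91), and Ltc4s with the folate receptor gene Folr2 (0.84), Tmem37 (0.83) and Padi4 (0.83). Alox15 ran with Cmklr1 (0.78), Gm48832 (0.76) and the complement gene C1qc (0.76). Hpgds ran with the transporters Slc7a8 (0.88) and Slc16a7 (0.88) and with Hpn (0.88), and Alox5 with Rab44 (0.83), Arap3 (0.82) and Tmem273 (0.81). For Ptgs1 they were Camk1 (0.87), March8 (0.83) and Tnfsf13 (0.82), for Ptgs2 Chil1 (0.80), Ptp4a1 (0.79) and 4930438A08Rik (0.79), and for Ptgds Hspb8 (0.92), Sbsn (0.90) and Timp3 (0.88).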

How the data were processed

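Single cells of ascites were measured in 4 libraries, 2 labelled siCont and 2 labelled siFXR1-LNA. Per library, the authors deposited UMI counts (genes by barcodes), made with Cell Ranger (7.0.0 in the submitters' processing notes, a later release in the study's methods) on mm10 and not normalized. The study left out 1 siFXR1-LNA sample, which the labels do not single out, so all 4 were kept.

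Cells were kept by the study's limits and clustered in Seurat 5.3.0 (R 4.3.3) without integration, from 2000 variable genes and 50 principal components at a resolution of 0.1, with the 9 enzyme genes and the 47 other pathway genes kept out of the variable genes. To be raised, a marker had to be in 5% of a cluster's cells or more, at a level 2 times that elsewhere, and a cluster was named from 3 raised markers or more that made up over 0.6 of their list. Subclusters of an unnamed cluster stayed unnamed. That rule was written after the clusters had been seen. Clusters of at least 100 cells were clustered again. Each hemoglobin-rich cluster needed a median of 30% hemoglobin UMIs to be named erythrocytes. Scrublet (scanpy 1.11.5) called 1 doublet in all and did not work, so removing the 5% of cells with the highest scores was an alternative.

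UMIs were summed per library and cell type, with at least 10 cells in every library, and tested over all genes in edgeR 4.0.16 (quasi-likelihood test after TMM scaling and filterByExpr, p adjusted by Benjamini-Hochberg, threshold 0.05). The SE of a log2 fold change is its size divided by the square root of F. The depth per type sets the precision of each level, and PCR and sampling errors beyond counting are not in it. Shares of cells were compared at 1000 UMIs per cell. Tested on simulated data with 200 changed genes, the test called most of them with the right sign. Named genes were the 9 enzymes, Fxr1, pathway genes past the threshold or highest where an enzyme is highest, and the 3 genes most like each enzyme, 1 of which is not reported here. The enzymes, lists and tests were chosen with earlier results of these data known. Promoter sequences came from RefSeq (GRCm38.p6), where 7 of the 9 genes matched.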

Additional observations from a re-analysis of the deposited data

Results flagged for a closer look

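The change between the groups differed between cell types for 7 pairs of gene and type, tested as an interaction in edgeR with the library as a block and Benjamini-Hochberg adjustment. Against macrophages, the log2 change of Ptgs2 was -4.00 ± 0.72 (SE), adjusted p = 0.00037 in granulocytes. That of Alox5 was 1.09 ± 0.32 (SE), adjusted p = 0.0474 in DCs, and that of Ltc4s 1.86 ± 0.34 (SE), adjusted p = 0.00189 in DCs. In mature DCs the difference was 2.69 ± 0.62 (SE), adjusted p = 0.000883 for Ptgs1, 1.14 ± 0.28 (SE), adjusted p = 0.00228 for Alox5ap and 1.42 ± 0.35 (SE), adjusted p = 0.00226 for Ltc4s. In mesothelial cells it was -3.14 ± 0.44 (SE), adjusted p = 0.0154 for Ptges. The level of Ptgs1 in mature DCs was near that of B cells. Macrophages here include the Saa3-led cluster, nearly all of it from the siFXR1-LNA libraries, and the test was not run without it.

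Between macrophage subclusters, in a test chosen after seeing the data, the change in 2.1 minus that in 2.0 was 4.64 ± 0.33 (SE), adjusted p = 4.03e-24 for Alox15, 1.62 ± 0.25 (SE), adjusted p = 1e-06 for Ltc4s and 1.77 ± 0.52 (SE), adjusted p = 0.0388 for Ptges. For Alox15 the siFXR1-LNA libraries differed from each other by more than its SE states.

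Outside the cell types compared, Ptgds stood at 136 and 37.3 CPM in cluster 0 of siFXR1-LNA replicates 1 and 2. Unnamed cells of siCont replicates 1 and 2 had 21.6 and 12.2 CPM. Those were only 66 and 47 cells, with 92572 and 82190 UMIs of all genes, so their values rest on very few Ptgds UMIs. The difference was not tested. In platelets of siCont replicate 2, Ptgs1, which starts thromboxane synthesis in these cells, stood at 128 CPM.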

How the results depend on the processing

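Of the changes of single genes under settings that kept all libraries, 676 kept their side of the threshold, 38 passed newly and 18 no longer passed. The 1 counted as reversed, Hpgds in mast cells named from marker UMIs, changed sign and passed. Changes that passed in neither fit count among the 676 whatever their sign. Alox15 in macrophages, for example, had a negative log2 fold change with all clusters and one of 0.14 without cluster 6. The count of the 9 enzyme genes past the threshold was 5 in macrophages, 2 each in granulocytes, mesothelial cells and subcluster 2.1, 1 each in DCs, B cells and T cells, and 0 elsewhere. Where it moved by over 1.5 times, it was as follows. In macrophages it fell to 0 at a resolution of 0.3 and without cluster 6, and rose to 8 with no filter on low counts. In granulocytes it was 1 with at least 500 genes per cell, at a resolution of 0.3, when each cell was named from its marker UMIs, with hemoglobin genes left out, with relative log expression normalization and without the 5% highest Scrublet scores, and 0 with no filter. With no filter it was also 3 in DCs and T cells, 4 in B cells and subcluster 2.0, 2 in mature DCs and subcluster 3.1, 1 in mast cells and subcluster 2.5, and 13 for the differences between types (7 as reported). With DESeq2 1.42.0 it was 3 in T cells and 2 in B cells and DCs. In mature DCs it was 2 at a resolution of 0.3 and 1 with cells named from marker UMIs, which gave 2 in mast cells and 0 in DCs. Under that naming the Hpgds change in mast cells turned from -0.38 to 3.24 (log2). The causes were not tested.

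Without 1 library at a time, the counts ran from 5 to 6 in macrophages, 1 to 5 in granulocytes, 0 to 4 in mesothelial cells, 0 to 2 in DCs and T cells, 0 to 3 in B cells, 1 to 2 in mature DCs and 0 to 1 in mast cells. They ran from 0 to 2 in subclusters 2.0 and 3.1, 0 to 4 in 2.1 and were 0 in 2.5. For the differences between types they ran from 2 to 17, and for 2.1 against 2.0 from 1 to 3. A group left with 1 library was assumed to vary like the other.

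With the replicate number as a block, the count was 1 in mature DCs and subcluster 3.1, 3 in B cells, 2 in T cells, DCs and subcluster 2.0, 5 in granulocytes, 6 in macrophages and 3 in subcluster 2.1 and mesothelial cells. The labels do not tie the replicate numbers to a shared day or animal, and correlations of same-numbered samples ran from -0.0388 to 0.370, so this block pairs by number only.

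Genes past the threshold in macrophages numbered 2699, and 1644 with cells named from marker UMIs, 1 at a resolution of 0.3 and 0 without cluster 6. In granulocytes they numbered 406, and 0 with no filter and 1513 with the block. In subcluster 2.1 they numbered 242, and 125 with at least 500 genes per cell, 941 with no filter and 950 with the block. In DCs there were 255, and 46 with marker naming, 104 at 0.3, 1380 with no filter, 476 with DESeq2 and 871 with the block. Depth limited Ptgs2 most, with 925 UMIs in all.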

Other observations

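Macrophages held most UMIs of Ptges and Ltc4s in every library, whichever the group. Their share of a library's Ptges UMIs was 67.6% and 84.1% in siCont replicates 1 and 2 and 71.5% and 88.0% in siFXR1-LNA replicates 1 and 2. For Ltc4s these shares were 74.0%, 84.7%, 66.7% and 83.6%. Ptgds UMIs lay elsewhere, with 41.9% and 58.1% in erythrocytes of the siCont libraries, the most numerous cells there, and 75.8% and 33.2% in unnamed cells of siFXR1-LNA replicates 1 and 2.

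Among the 47 other pathway genes, none passed in B cells (25 tested, 5 at an unadjusted p under 0.05 in edgeR), T cells (29 tested, 3 at an unadjusted p under 0.05), mature DCs (15 tested, 2) or mast cells (3 tested, 0). None passed in subclusters 2.0 (29 tested, 5 at an unadjusted p under 0.05), 2.5 (21 tested, 2) or 3.1 (21 tested, 1) either.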
